A study of Homo sapiens with 28 samples.

Results

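The RNAs described here are 5 abundant non-coding transcripts of RNA polymerase III, 7SK, 7SL1, 7SL2, RMRP and RPPH1, together with ENSG00000200488 on chromosome 2 and ENSG00000201185 on chromosome 6, which are 2 entries listed as small-RNA pseudogenes. The 5 were taken by name. The 2 pseudogene entries were chosen by their read counts, which were high under 1 of the 2 RNA handlings, so those counts are a description with no test. Of 10 identifiers looked for, 3 stood alone in the gene column of the count table and the others fell into 4 joint entries, because 7SK (ENSG00000202198 and ENSG00000283293), RMRP (ENSG00000269900 and ENSG00000277027) and RPPH1 (ENSG00000259001 and ENSG00000277209) each appeared under an old and a new identifier. 7SL2 (ENSG00000274012) shared its entry with ENSG00000282885, and 7SL1 (ENSG00000276168) stood alone. This gave 7 entries of 24682 with exonic reads in the HISAT-3N alignment.

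7SK binds the elongation kinase P-TEFb together with HEXIM proteins and holds it inactive. 7SL is the RNA of the signal recognition particle, which brings ribosomes making secreted and membrane proteins to the endoplasmic reticulum, and 7SL1 and 7SL2 are near-identical gene copies of it. RMRP is the RNA of RNase MRP, which takes part in the processing of ribosomal RNA, and RPPH1 is the RNA of RNase P, which trims the leader from precursor tRNAs. All are short, folded RNAs without a poly(A) tail, and the library method used here copies total RNA.

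In RefSeq's GRCh38.p14 annotation each of the 5 is a single gene. 7SK (RN7SK) lies at chr6:52995620-52995951 and is 332 bases long, and RMRP lies at chr9:35657750-35658019 and is 270 bases long. The other 3 lie on chromosome 14, 7SL1 (RN7SL1) at chr14:49586580-49586878, 7SL2 (RN7SL2) at chr14:49862551-49862849 and RPPH1 at chr14:20343071-20343411. Both 7SL genes are 299 bases long and RPPH1 is 341 bases long.

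Wild-type HEK293T, an established line from human embryonic kidney, was given 100 µM 4-thiouridine (s4U, a uridine analogue that enters newly made RNA) for 2 h, or was left unlabelled. The s4U was recoded chemically so that sequencing reads C where the RNA had s4U, by sodium periodate with trifluoroethylamine at pH 5.2, by iodoacetamide alkylation, or by osmium tetroxide with ammonia. Each of these 3 chemistries was run after drop-out handling (DO), in which RNA was treated by common protocols, and after improved handling (IH), which was meant to lose less labelled RNA. Each chemistry and handling had 2 labelled libraries and 1 unlabelled library, 18 libraries in all. The labels do not say whether libraries came from separate cultures, so p-values measure the spread between these libraries, which may be technical. Marker genes of the cell line were not looked up, because the count table holds identifiers without symbols.

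The HISAT-3N libraries held 886387 to 4685049 exonic reads. Within the DO libraries, same-numbered labelled libraries of different chemistries deviated together across 3455 genes, with correlations of 0.541 to 0.64, against 0.0466 to 0.0787 within IH. The 6 labelled DO libraries were therefore not 6 independent samples. All p-values that set them against IH or against unlabelled DO libraries may be too small. A count model on labelled libraries summed over chemistries, which leaves 2 sums per handling, was added after the data were seen and is given for the handling comparisons. No summed model was run for labelled against unlabelled libraries.

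With s4U the 5 RNAs together took 13.4% ± 0.920 of exonic reads under DO and 3.08% ± 0.260 under IH (SD, n = 6 each). In unlabelled libraries they took 11.0% ± 1.15 under DO and 2.64% ± 0.525 under IH (SD, n = 3 each). The share of each of the 5 was lower in every IH library than in every DO library of the same label. How many of all genes separated in this way was not counted, so nothing is read from this separation. Of the 12416 genes tested, edgeR called 34.0% lower under IH (adjusted p under 0.05) in labelled libraries and 30.8% in unlabelled ones, and nothing is read from the count of the 5 beside these shares. The libraries came from the same cell line, and DO and IH are ways of treating its RNA. The cause of the lower shares under IH was not tested. Because the set was put together with these counts known, the handling differences in counts are described and not tested.

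7SL1, the highest of the 5 by the mean of labelled libraries, took 4.34% of exonic reads in the lowest labelled DO library, 5.10% at the median and 5.42% in the highest. Under IH the corresponding values were 0.444%, 1.11% and 1.22%. The unlabelled libraries held 2.28%, 4.19% and 3.11% under DO and 0.313%, 1.02% and 0.955% under IH, for periodate, iodoacetamide and osmium in that order. With HISAT-3N the low end under both handlings came from periodate libraries, the unlabelled one under DO and the unlabelled one and replicate 2 under IH. With STAR these libraries held 4.11%, 1.16% and 1.19%. The lowest IH library with STAR was the unlabelled iodoacetamide one, at 1.02%.

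7SL2 took 1.02%, 1.31% and 1.41% of exonic reads at the lowest, median and highest labelled DO library, and 0.303%, 0.363% and 0.426% under IH. Its unlabelled libraries held 0.761%, 1.01% and 1.40% under DO and 0.235%, 0.274% and 0.361% under IH, in the same order of chemistries. The DO and IH libraries did not overlap, from which nothing is read, since this was not counted over all genes.

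7SK took 3.09%, 3.72% and 4.32% at the lowest, median and highest labelled DO library and 0.862%, 0.883% and 1.08% under IH. Unlabelled libraries held 3.73%, 3.17% and 3.30% under DO and 0.820%, 0.817% and 0.898% under IH. Labelled and unlabelled libraries of the same handling overlapped or lay close together. The handlings lay apart, which likewise was not counted over all genes.

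The RNAs of the 2 endonucleases followed the same order. RMRP took 1.61%, 1.85% and 2.02% at the lowest, median and highest labelled DO library and 0.420%, 0.441% and 0.554% under IH, with unlabelled values of 1.55%, 1.89% and 1.64% under DO and 0.377%, 0.414% and 0.410% under IH. RPPH1 took 1.37%, 1.70% and 1.88% in labelled DO libraries and 0.281%, 0.356% and 0.394% under IH, with unlabelled values of 1.40%, 1.74% and 1.68% under DO and 0.291%, 0.341% and 0.383% under IH. In neither RNA did a DO library overlap an IH library, a separation that was not counted over all genes and from which nothing is read.

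**Figure D1:**
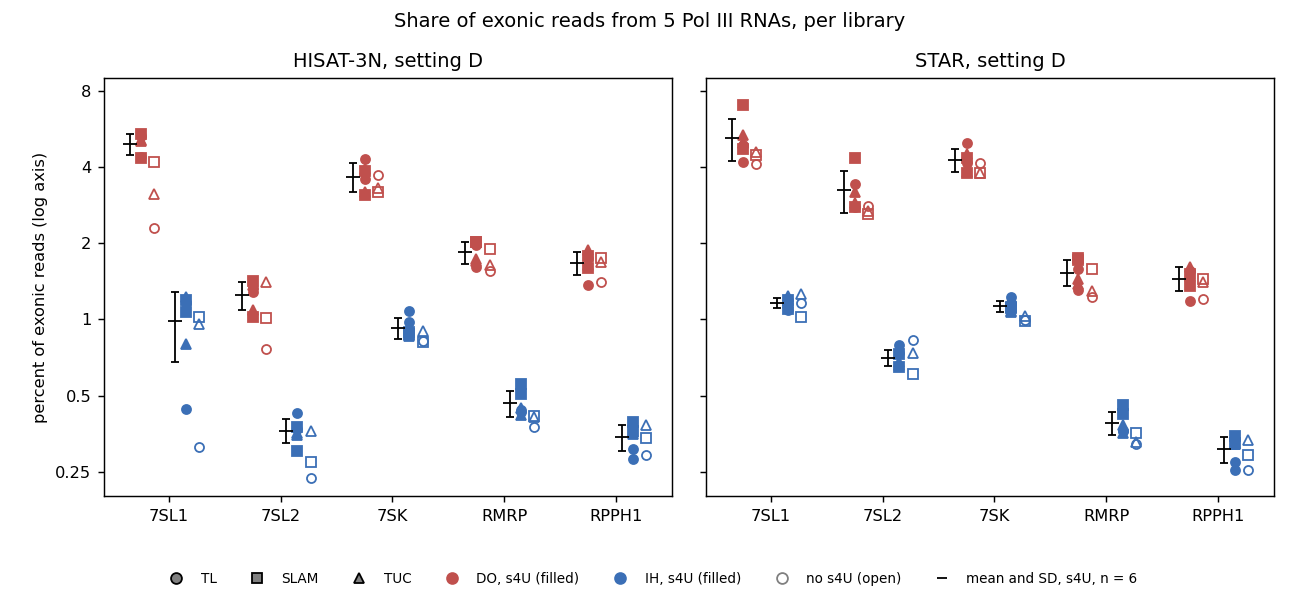
Share of exonic reads taken by each of the 5 RNAs with HISAT-3N (left) and STAR (right), in percent on a log axis, with 1 point per library, symbols for periodate (TL), iodoacetamide (SLAM) and osmium (TUC), open points without s4U, and bars for the mean and SD of 6 labelled libraries. Every IH point of an RNA lies below every DO point of the same label, a separation that was not counted over all genes. With HISAT-3N 7SL1 under IH spreads from 0.313% to 1.22%.

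On the TMM scale, which sets libraries to a common bulk of genes, labelled counts of 7SL1 were 7.99-fold lower under IH than under DO, those of RPPH1 7.68-fold, those of 7SK 6.25-fold, those of RMRP 6.23-fold and those of 7SL2 5.40-fold. The log2 differences were -3.00 (SE 0.17), -2.94 (SE 0.095), -2.64 (SE 0.10), -2.64 (SE 0.088) and -2.43 (SE 0.095). On the summed libraries they were -3.28, -3.21, -2.93, -2.96 and -2.68. In unlabelled libraries they were -2.74, -2.78, -2.54, -2.61 and -2.38, so the differences were of similar size with no s4U present. With STAR in place of HISAT-3N the labelled differences were -2.87, -2.95, -2.63, -2.68 and -2.91 in the same order. That of 7SL2, the smallest with HISAT-3N, then exceeded that of 7SL1 in size.

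These sizes depend on the scaling. Genes shifted by a median of 0.44 (log2) towards IH on the TMM scale and by 1.10 when libraries were scaled to exonic totals alone. On totals alone 7SL1 differed by -2.34 and 7SK by -1.98, and relative to the median gene 7SL1 differed by -3.44 on the TMM scale and by -3.43 on totals. The labelled split over all genes was 5812 higher and 4216 lower with TMM, and 7197 higher and 2814 lower with totals alone.

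Between genes, levels were compared as CPM per kilobase of RNA, with CPM taken over exonic reads. In labelled DO libraries the mean level of 7SL1 was 165115, from 145066 to 181157, followed by 7SK at 110312, from 93102.8 to 130007. RMRP followed at 68272.3, from 59676 to 74980.9, then RPPH1 at 48961.5, from 40184 to 55134.5, and 7SL2 at 41864.5, from 34161.4 to 47280. Only RPPH1 and 7SL2 overlapped among neighbours in this order.

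Under IH the levels of all 5 were lower. 7SL1 was at 32829.8, from 14848.1 to 40943.8, and its range covered that of 7SK at 27889.5 and reached that of RMRP at 17265.1. 7SL2 at 12157.6 and RPPH1 at 10058.6 again overlapped, now with 7SL2 ahead. In the STAR alignment of the same DO reads 7SL2 stood at 108202, behind 7SK at 128460 and ahead of RMRP at 56679.7, so its place among the 5 changed with the aligner.

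Replicate libraries of 1 chemistry differed little in most of these RNAs. Under IH the larger replicate exceeded the smaller by 1.01 to 1.09 times for RMRP, 1.01 to 1.11 times for 7SK and 1.02 to 1.09 times for RPPH1. For 7SL1 the ratio was 1.11 to 2.61 times in the HISAT-3N alignment and 1.06 to 1.09 times in the STAR alignment. Under DO the ratios of the 5 reached 1.38 times with HISAT-3N and, for 7SL2, 1.57 times with STAR.

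The log2 counts of the other 4 followed those of 7SK over the 18 libraries, with Pearson correlations of 0.989 for RMRP, 0.986 for RPPH1, 0.978 for 7SL2 and 0.934 for 7SL1. These are descriptions, since the libraries fall into 2 handling clusters that set most of the spread. Among the 3448 other well-counted genes the nearest to 7SK were ENSG00000204628 and ENSG00000099995, both at 0.997.

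The next comparison asked whether s4U itself changed the counts. None of the 5 passed the threshold under either handling, where 0.217% of genes did under DO and 0.226% under IH. These calls depended on the filter, on single libraries and on a term for replicate number. Under DO the labelled minus unlabelled log2 difference was 0.78 for 7SL1 (SE 0.20, edgeR quasi-likelihood test, Benjamini-Hochberg adjusted p = 0.104), 0.39 for 7SL2, 0.22 for 7SK, 0.23 for RMRP and 0.17 for RPPH1. Under IH the values were 0.52, 0.34, 0.12, 0.21 and 0.013 in the same order, of which that of RPPH1 was the closest to 0. With STAR the difference for 7SL1 was 0.36 under DO (edgeR adjusted p = 0.295) and 0.041 under IH (edgeR adjusted p = 0.953), and that for 7SL2 was 0.39 and -0.0080.

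With the replicate block, a term for replicate number among labelled libraries, 7SL1 alone was called under DO. Its log2 difference was 0.88 (edgeR adjusted p = 0.0384), and 63 of 12416 genes were called. Under DO 7SL1, 7SL2, 7SK and RMRP were called higher without the filter on low counts, where 101 of 24682 genes were called. They were also called without iodoacetamide DO replicate 1, at 0.98, 0.46, 0.42 and 0.39 (edgeR adjusted p = 0.0145, 0.00477, 0.00304 and 0.00410), where 209 genes were called. The difference of 7SL2 was 0.53 without iodoacetamide DO replicate 2, 0.50 without periodate DO replicate 2 and 0.75 without the unlabelled osmium DO library. That of 7SL1 was 0.78 without periodate IH replicate 1 and 0.78 without replicate 2. Under IH 7SL1 and 7SL2 were called without the filter, where 52 of 24682 genes were called. The IH difference of 7SL2 was 0.39 without iodoacetamide DO replicate 1 and 0.39 without replicate 2.

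The difference between these 2 contrasts was tested as well. It ran from -0.26 for 7SL1 (95% interval -0.83 to 0.30) to -0.029 for RMRP (interval -0.33 to 0.27), with edgeR adjusted p-values of 0.861 or more. Across all genes 0 passed in edgeR (0.00%), 913 had an unadjusted p under 0.05, and DESeq2 called 3. No difference between the 3 chemistries in the counts of the 5 was called under IH in the edgeR test (adjusted p = 1), where 0.0161% of genes were called, and without the filter on low counts 1 of the 5 was.

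The converted share is the part of a gene's exonic reads that carry a T-to-C mismatch, 1 or more. It comes from newly made RNA carrying s4U and from a background of mismatches that unlabelled libraries show too. In labelled IH libraries the share was higher than in unlabelled ones in 4 of the 5 RNAs, 7SL2, 7SK, RMRP and 7SL1, as it was in 99.6% of the 1924 genes tested. Under DO it was higher in 7SL2, 7SK, RMRP and RPPH1, and in 92.4% of genes. Under IH the log2 odds ratios of the 5 lay between 0.17 and 0.91, and that of the median gene was 3.29. The 95% Wilson interval of a single library's share reached at most 0.839 percentage points to either side for these RNAs, and covers counting error only.

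RMRP had 4.75%, 6.65% and 9.20% converted reads at the lowest, median and highest labelled DO library and 4.45%, 5.37% and 6.97% under IH. Its unlabelled libraries had 2.50%, 5.55% and 2.68% under DO and 2.51%, 5.79% and 2.96% under IH, for periodate, iodoacetamide and osmium. The iodoacetamide background overlapped the labelled libraries of the other chemistries, and each labelled library lay above the unlabelled one of its own chemistry. The log2 odds ratio for s4U was 1.01 with an SE of 0.17 under DO (edgeR adjusted p = 1.81e-07). Under IH it was 0.68 with an SE of 0.17 (edgeR adjusted p = 0.000171).

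7SK had 4.77%, 6.24% and 8.89% converted reads in labelled DO libraries and 5.16%, 5.83% and 8.37% under IH, again as lowest, median and highest. Its unlabelled libraries had 3.41%, 5.83% and 3.64% under DO and 3.41%, 6.28% and 3.24% under IH, with iodoacetamide the highest. Labelled libraries exceeded the unlabelled one of their chemistry in 12 of 12 cases. The log2 odds ratio reached 0.62 under DO (edgeR adjusted p = 0.000226), and IH gave 0.65 (edgeR adjusted p = 8.69e-05).

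With HISAT-3N the converted share of 7SL2 was above that of 7SL1 in labelled libraries, and with STAR the order of their means turned. 7SL2 had 4.39%, 6.43% and 7.87% in labelled DO libraries and 5.31%, 5.85% and 6.77% under IH, over backgrounds of 2.76%, 4.25% and 3.25% under DO and 2.63%, 4.74% and 2.86% under IH. Its log2 odds ratio was 0.92 under DO (edgeR adjusted p = 2.56e-06), close to that of 0.91 under IH (edgeR adjusted p = 2.91e-06). Under both handlings all labelled libraries of 7SL2 lay above the unlabelled library of their chemistry.

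7SL1 had 2.46%, 3.51% and 4.09% in labelled DO libraries and 2.69%, 2.85% and 3.87% under IH with HISAT-3N. With STAR its mean was 5.11% ± 0.865 under DO and 5.00% ± 0.728 under IH, and that of 7SL2 was 4.35% ± 0.747 and 4.32% ± 0.617 (SD, n = 6 each). With HISAT-3N the unlabelled libraries of 7SL1 had 4.81%, 2.52% and 3.19% under DO and 1.94%, 2.39% and 2.56% under IH, so the periodate DO background lay above every labelled library. The log2 odds ratio for s4U under DO was -0.046 (95% interval -0.35 to 0.26, edgeR adjusted p = 0.767). Under IH it was 0.44 (SE 0.16, edgeR adjusted p = 0.00672), and without the unlabelled iodoacetamide IH library it was 0.33 (edgeR adjusted p = 0.0971).

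The result for 7SL1 under DO depended on the alignment and on the measure. With STAR the log2 odds ratio was 0.69 (edgeR adjusted p = 4.07e-05), where 85.5% of genes were called higher, and 6 of 6 labelled libraries lay above their unlabelled ones, against 3 of 6 with HISAT-3N. With at least 2 mismatches per read it was 3.42.

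RPPH1 had the smallest rise under IH. Its converted share was 4.09%, 5.22% and 6.09% in labelled DO libraries and 4.26%, 4.53% and 5.46% under IH, over backgrounds of 3.82%, 4.41% and 3.16% under DO and 3.85%, 5.54% and 3.38% under IH. The labelled and unlabelled IH libraries overlapped. The log2 odds ratio was 0.47 under DO (edgeR adjusted p = 0.00670) and 0.17 under IH (95% interval -0.17 to 0.51, edgeR adjusted p = 0.319), the lowest of all 1924 genes.

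**Figure D2:**
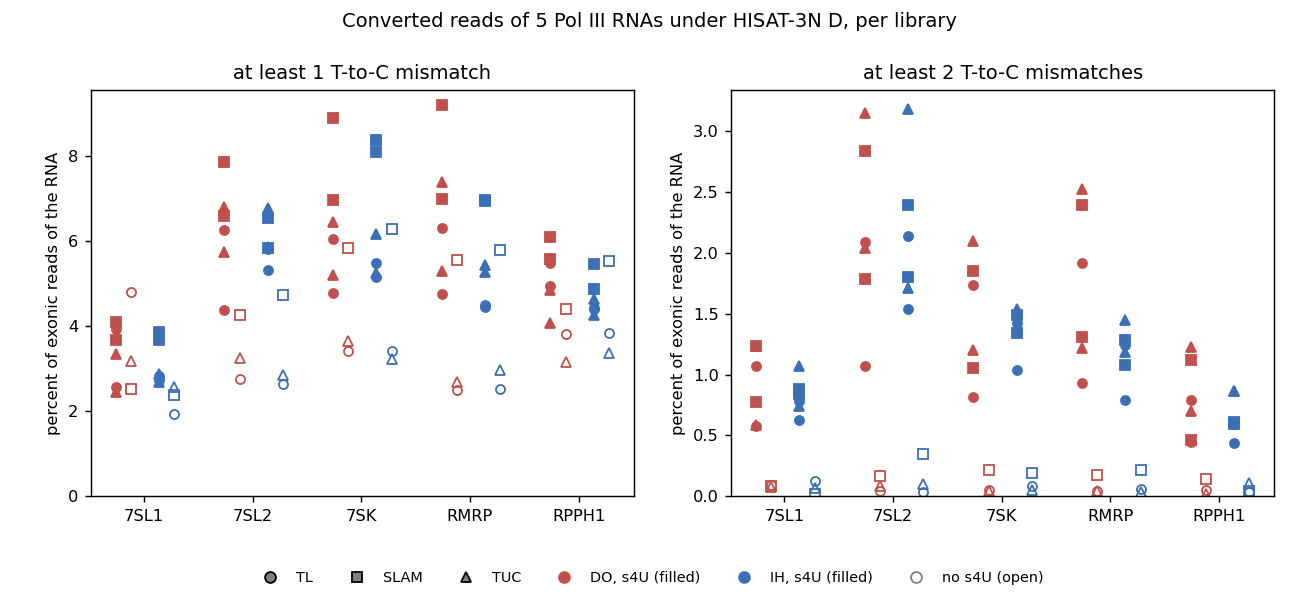
Share of the exonic HISAT-3N reads of each RNA with at least 1 (left) and at least 2 (right) T-to-C mismatches, in percent, with 1 point per library, the same symbols for chemistries and open points without s4U. On the left, unlabelled iodoacetamide libraries stand above the other unlabelled ones in 7SK, RMRP, 7SL2 and RPPH1, where they reach 5.54% to 6.28% in 3 of these RNAs under IH, and in 7SL1 the unlabelled periodate DO library is the highest of all at 4.81%.

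Reads with at least 2 mismatches had a far lower background. In 7SL1 they made up 0.581% to 1.24% of labelled DO reads and 0.624% to 1.07% of labelled IH reads, against 0.0216% to 0.123% in unlabelled libraries. In 7SL2 the labelled ranges were 1.07% to 3.15% and 1.54% to 3.18%, against 0.0363% to 0.348%. In RPPH1 they were 0.449% to 1.23% and 0.437% to 0.869%, against 0.0197% to 0.140%.

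Labelled and unlabelled ranges did not overlap in any of these 3, nor in 7SK, with 0.818% or more against 0.219% or less, or RMRP, with 0.796% or more against 0.212% or less. Each of the 5 exceeded its matched background in 12 of 12 labelled libraries by this measure, by which 96.9% of genes under DO and 99.9% under IH were called in the edgeR test. For RPPH1 under IH the log2 odds ratio with at least 2 mismatches was 3.49 (edgeR adjusted p = 8.59e-13).

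The handling comparison of converted shares gave no call for any of the 5, while 82.0% of the 1996 genes tested rose under IH and 0.00% fell. The IH minus DO log2 odds ratio was 0.0099 for 7SK (95% interval -0.24 to 0.26, edgeR adjusted p = 0.941), -0.045 for 7SL2 (interval -0.33 to 0.24) and -0.096 for 7SL1 (interval -0.35 to 0.16). It was -0.15 for RPPH1 (interval -0.42 to 0.12) and -0.26 for RMRP (interval -0.53 to 0.018, edgeR adjusted p = 0.0783). The median gene stood at 1.08, above the upper bound of every interval given here, and counted from the lowest the 5 took places 10 (RMRP), 19 (RPPH1), 25 (7SL1), 38 (7SL2) and 48 (7SK) of 1996. These odds ratios compare labelled shares without subtracting the unlabelled background, which was a large part of the share in these RNAs. The mean excess over the matched unlabelled library was 1.38 points under DO and 0.42 under IH for RPPH1, and 3.08 and 1.84 for RMRP. It was 2.09 and 2.12 for 7SK, 2.85 and 2.61 for 7SL2, and -0.16 and 0.82 for 7SL1. For 7SL1 the direction depended on the alignment and the measure. With STAR its mean excess was 1.86 points under DO and 1.62 under IH. With at least 2 mismatches per read in HISAT-3N it was 0.83 and 0.75. With STAR the excess of 7SK was 1.93 and 1.71. Differences in this excess were not tested.

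For RMRP the call depended on the setting. With STAR it was called lower under IH, at -0.28 (edgeR adjusted p = 0.0471), as were 0.120% of genes. Without DO replicate 2 of iodoacetamide, of periodate or of osmium it was at -0.33, -0.33 and -0.34. Without DO replicate 1 of the same chemistries it was at -0.18, -0.18 and -0.17. With the replicate block it was called at -0.26 (edgeR adjusted p = 0.00897), where 1709 of 1996 genes were called in either direction. On the summed libraries it was -0.33 and not called (edgeR adjusted p = 0.217). Under DO, replicate 1 had the higher converted share in all 5 RNAs and all 3 chemistries.

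No difference between chemistries in converted share was called under IH for the 5 or for any other gene tested in edgeR (0.00%, with 52 genes at an unadjusted p under 0.05). With all reads of the gene, and not only exonic ones, 1 gene was called. With the replicate block 2 genes were called, 1 of them among the 5. Labelled iodoacetamide libraries had 8.23% ± 0.186 converted 7SK reads, periodate ones 5.33% ± 0.238 and osmium ones 5.71% ± 0.646 (SD, n = 2 each), with an unadjusted p of 0.00624 in the edgeR fit and an adjusted p of 0.975. The unlabelled libraries had the same highest chemistry, at 6.28% for iodoacetamide, and the part of that background in the difference was not tested.

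The same reads aligned by STAR gave other counts for these RNAs. In CPM over exonic reads, 7SL2 was 2.24-fold higher with STAR in 12 of 12 labelled libraries, a log2 ratio of 1.16 (exact two-sided sign-flip test, adjusted p = 0.00248). 7SK was higher by 0.26 in 12 of 12, and RMRP and RPPH1 were lower by 0.26 and 0.18 in 12 of 12, each with the same exact adjusted p, the smallest this test can give here. 7SL1 was higher in 8 of 12 libraries, with a mean of 0.19 and a range of -0.11 to 1.42 (exact adjusted p = 0.226).

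Calls were thus made in both directions among the 5, and over all genes 12.1% were called higher and 35.1% lower with STAR. Without scaling to the exonic totals RMRP and RPPH1 turned to 0.081 and 0.16, and with all reads of the gene to 0.025 and 0.058, so their direction holds only for exonic reads in CPM. The unlabelled libraries gave 0.63 for 7SL1 and 1.36 for 7SL2.

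The converted share moved with the aligner as well. It was 1.82 percentage points higher with STAR for 7SL1 and 1.81 points lower for 7SL2, in 12 of 12 libraries each. It was 0.90 points lower for 7SK and 0.14 points lower for RPPH1, also in 12 of 12 (exact two-sided sign-flip test, adjusted p = 0.00180 for these 4). For RMRP it was 0.070 points higher (exact adjusted p = 0.0441), a call that was lost when any of 10 of the 12 libraries was left out. Among 1982 genes 1.87% were called higher and 54.9% lower, with a median of -1.26 points.

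Where reads of the 7SL copies went differed by aligner. With HISAT-3N 46.0% of reads naming 7SL2 were exonic to it alone and 42.4% named it together with other genes, from 19.6% to 55.7% over libraries. With STAR 94.5% were exonic to it alone and 5.49% named other genes too, from 1.40% to 11.4% over libraries. The highest was iodoacetamide DO replicate 2, without which the pooled share was 3.30%. Without that library 54.8% of the HISAT-3N reads of 7SL2 were exonic and 38.4% named other genes too. The lowest exonic share of 7SL2 with HISAT-3N was 24.4%, in iodoacetamide DO replicate 2. For 7SL1, 64.0% of HISAT-3N reads were exonic and 35.4% were marked intronic, from 9.62% to 73.1% over libraries, against 88% and 12% with STAR. Without iodoacetamide DO replicate 2 they were 70.6% and 29.1%, against 90.9% and 9.05% with STAR. A read is marked intronic in this table when it names a gene but falls in none of its transcripts, so for a single-exon RNA such as 7SL1 the mark does not mean an intron.

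The ratio of 7SL1 to 7SL2 exonic reads ran from 1.04 to 5.30 over libraries with HISAT-3N, with a median of 3.23, and from 1.40 to 1.81 with STAR, with a median of 1.68. The lowest HISAT-3N ratios were those of periodate IH replicate 2, at 1.04, and the unlabelled periodate IH library, at 1.33, and their STAR ratios were 1.51 and 1.40. Since the copies are near-identical, the counts of each alone are uncertain. Their sum was 6.19% of exonic reads under DO and 1.35% under IH with HISAT-3N, and 8.42% and 1.87% with STAR (means of 6 labelled libraries).

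**Figure D3:**
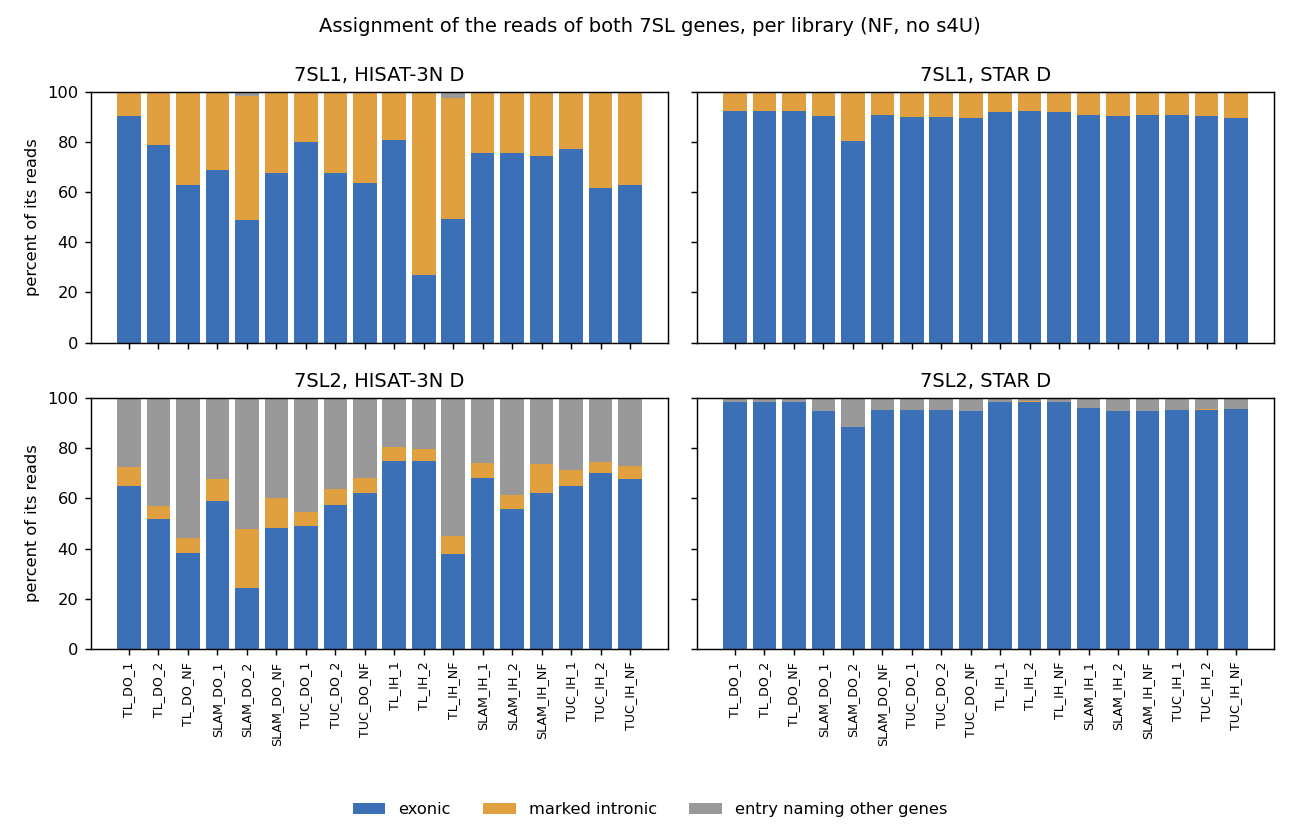
Reads naming 7SL1 (top) and 7SL2 (bottom) in each library (NF, no s4U), split into exonic, marked intronic and shared with other genes, in percent, for HISAT-3N and STAR. HISAT-3N puts 9.62% to 73.1% of 7SL1 reads in the class marked intronic and 19.6% to 55.7% of 7SL2 reads in the class shared with other genes, and STAR leaves 7.61% to 19.6% and 1.40% to 11.4% there.

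Exonic reads made up 79.9% of RMRP reads, 95.6% of 7SK reads and 98.4% of RPPH1 reads with HISAT-3N. RMRP, the lowest of these 3, had 19.0% marked intronic with HISAT-3N and 22.0% with STAR, where 7SL1 had 12%.

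The pseudogene entry ENSG00000200488 differed more between aligners than any of the 5, with a log2 ratio of STAR over HISAT-3N of -4.16 in labelled libraries. It had 516 and 1756 exonic HISAT-3N reads in the labelled periodate DO libraries, 218 and 2440 in the iodoacetamide ones and 253 and 237 in the osmium ones. The unlabelled DO libraries had 480, 195 and 143 in the same order. The labelled iodoacetamide DO libraries differed in depth, with 973564 and 2989059 exonic reads in all. In CPM the periodate and iodoacetamide DO replicates differed by 3.27 and 3.65 times, more than those of any of the 5 RNAs.

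Under IH it had 193 and 102 reads with periodate, 62 and 92 with iodoacetamide and 81 and 93 with osmium, with 336, 82 and 55 unlabelled. With STAR the labelled counts were 15 to 72 under DO and 3 to 15 under IH. On the TMM scale the IH minus DO log2 difference with HISAT-3N was -3.52 labelled and -2.54 unlabelled. Its converted share was 10.5% to 45.2% in labelled libraries and 11.2% to 26.7% in unlabelled ones, so the 2 ranges overlapped. Counting only HISAT-3N reads with at least 2 mismatches, its share was 2.05% to 23.5% in labelled libraries and 0.595% or less in unlabelled ones, and these ranges did not overlap. With STAR they did, on few reads: the unlabelled iodoacetamide DO library had 1.89% and labelled periodate DO replicate 1 had 0.0%. How many of all genes separated in this way was not counted.

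ENSG00000201185 had 264 and 1100 exonic HISAT-3N reads in the labelled iodoacetamide DO libraries and 334 in the unlabelled one, against 31 to 71 in every other DO library. In CPM these iodoacetamide libraries stood at 271, 368 and 301. Under IH it had 2 to 11 reads in every library. The IH minus DO log2 difference was -5.38 labelled and -5.27 unlabelled. Over all libraries its exonic reads summed to 2062 with HISAT-3N, 1086 with STAR and 8001, 6475 and 14546 with HISAT2 under its 3 settings, which the labels name D, ML and VL without defining them.

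For ENSG00000200488 the sums were 7334 with HISAT-3N, 426 with STAR and 4593, 2496 and 7690 with HISAT2. The sums of 7SL1 with HISAT2 were 906058, 783836 and 256395, and those of 7SL2 were 655301, 611507 and 177184, so both copies were lowest with setting VL. The 3 STAR settings gave nearly the same sums for these entries, 1086, 1091 and 1089 for ENSG00000201185.

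**Figure D4:**
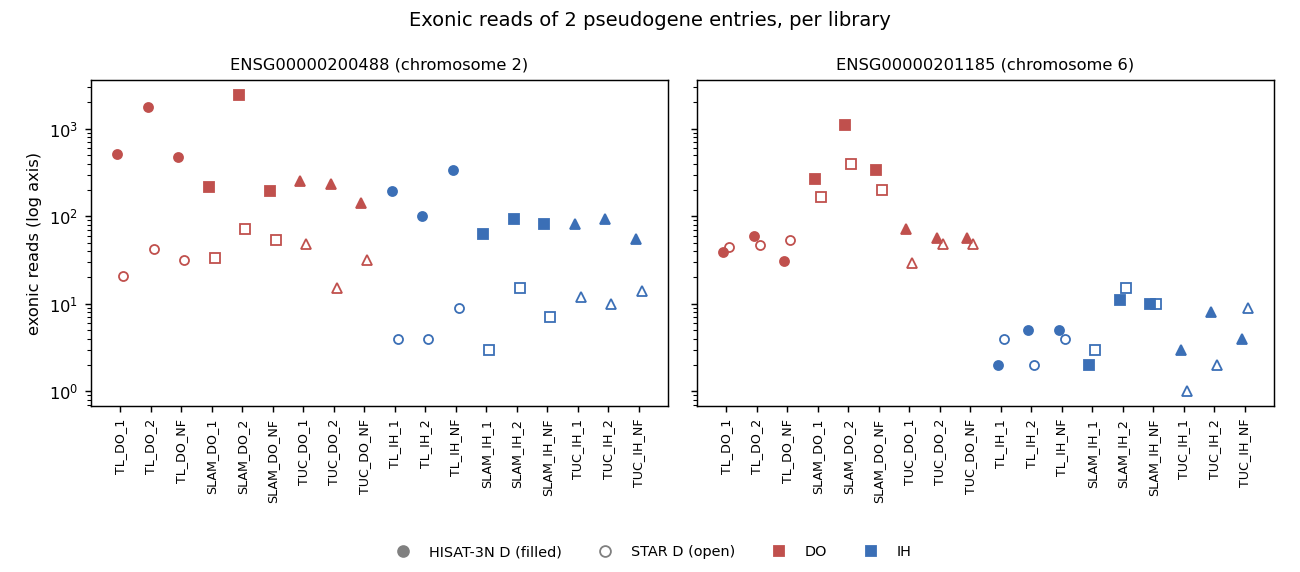
Exonic reads of ENSG00000200488 and ENSG00000201185 in each library (NF, no s4U), on a log axis, for HISAT-3N (filled) and STAR (open). ENSG00000200488 reaches 1756 and 2440 HISAT-3N reads in 2 DO libraries and no more than 72 STAR reads in any labelled library, and ENSG00000201185 is high in the 3 iodoacetamide DO libraries.

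The authors' deposited table gives first-order rate constants of degradation estimated with bakR, a tool that works from mismatch counts. No time unit is given, and the chemistries are named TimeLapse, SLAM (iodoacetamide in the sample titles) and TUC (osmium). In the authors' deposited table the constant of RPPH1 fell from 0.0168 to 0.00636 with TimeLapse, a log2 change of -1.41 (authors' adjusted p = 3.13e-05). That table gives -1.23 for RMRP (authors' adjusted p = 1.07e-06), -0.76 for 7SL1 and -0.76 for 7SK, and 0.74 for 7SL2 (authors' adjusted p = 0.00102). So 7SL2 rose and the other 4 fell.

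With TUC the authors' deposited table gives -1.48 for RMRP, -1.18 for RPPH1, -1.03 for 7SL1, -0.44 for 7SK (authors' adjusted p = 0.289) and 0.62 for 7SL2 (authors' adjusted p = 0.0347). With SLAM it gives -1.93, -1.48, -1.71, -1.40 and 0.41 in that order, the last with an adjusted p of 0.115. Among all transcripts of the authors' deposited table, shares of 52.6%, 48.1% and 48.9% were called higher under IH and 0.679%, 0.442% and 1.44% lower, for TimeLapse, TUC and SLAM. Falls were thus called in 4, 3 and 4 of the 5 RNAs.

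Under IH the constant of RPPH1 was the second lowest of 2209 transcripts with TimeLapse and the lowest of 2262 with TUC and of 1600 with SLAM in the authors' deposited table. Median constants in that table were 0.0430, 0.0411 and 0.0354 under DO and 0.102, 0.0998 and 0.0833 under IH. The constants rest on the same libraries as the converted shares, so they are not a separate measurement.

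**Figure D5:**
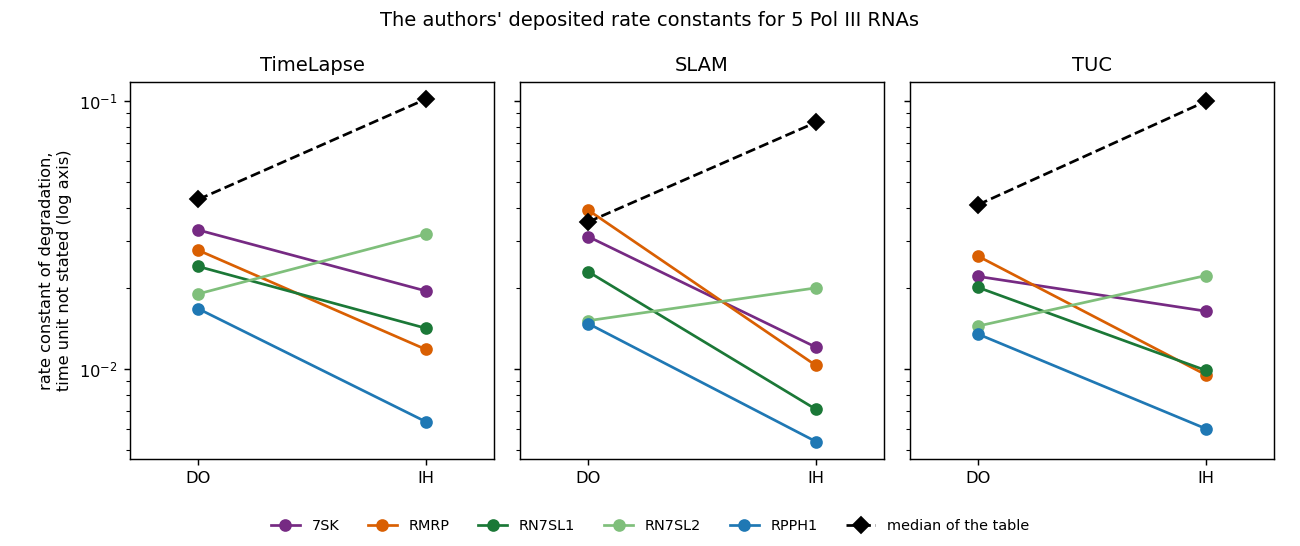
The authors' degradation rate constants of the 5 RNAs under DO and IH, on a log axis, for each of the 3 chemistries. The lines of 7SK, 7SL1, RMRP and RPPH1 go down from DO to IH and those of 7SL2 go up, while the median over all transcripts goes up.

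Protein-coding genes of the same machinery were looked up in the authors' deposited table, which pairs transcripts with symbols. Of 8 genes of the signal recognition particle and its receptor, 3 were present, SRPRA, SRP68 and SRP14, with log2 changes above 0 in all chemistries, where 7.06%, 7.12% and 8.56% of all transcripts in the authors' deposited table were below 0 with TimeLapse, TUC and SLAM. The authors' deposited table calls SRPRA higher with each chemistry, at 3.25, 1.27 and 1.93 for TimeLapse, TUC and SLAM, and SRP68 higher with TimeLapse at 1.49 and TUC at 1.32. SRP14 was at 1.22, 0.44 and 0.12, none of them called.

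Of 34 genes of RNA polymerase III and its factors, 9 were in the authors' deposited table with TimeLapse, 10 with TUC and 5 with SLAM. All of these were above 0, and 5, 5 and 3 were called higher, beside 52.6%, 48.1% and 48.9% of all transcripts in the authors' deposited table. MEPCE, the enzyme that caps 7SK, was the only gene of 7 of the 7SK particle present, at -0.16 with TUC. None of the 11 RNase P and RNase MRP proteins was listed. BCYRN1, a polymerase III RNA related to 7SL, was listed with TimeLapse and higher, at 1.65. Of 15 other short RNAs, SCARNA2 was at -0.50, -0.81 and -0.12 in the authors' deposited table for TimeLapse, TUC and SLAM, and RNU4-2 at 1.03 with TUC and 0.65 with SLAM, none of them called.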

How the data were processed

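Per the labels, the deposited count table holds the authors' read counts by sample, aligner, aligner setting, gene, transcript, intronic mark, T-to-C mismatches per read and T positions per read. The submitters' processing notes name cutadapt, HISAT, HISAT2, STAR, Picard, HTSeq and DESeq2 with build GRCh38, without versions or roles. The authors' deposited rate constants come with a log2 fold change between handlings and an adjusted p-value, per the labels, and their time unit is not given in the sources used here. In all, 10 samples of 5 other chemistries were not analysed here.

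Exonic reads were summed per gene entry from the HISAT-3N alignment with setting D, and from STAR with setting D for comparison. Counts were fitted over all genes that passed edgeR's filter on low counts, in 18 libraries of 12 groups with TMM scaling and the quasi-likelihood test (edgeR 4.0.16, R 4.3.3), with Benjamini-Hochberg adjustment over all genes and a threshold of 0.05. Converted shares were fitted with the same tool, which set converted against unconverted reads and held each library as a term, where every library had 50 or more exonic reads of the gene. Aligners were compared with an exact sign-flip test over 4096 arrangements, for genes with a mean of 10 reads, with 1 read added. DESeq2 1.42.0, other scalings, filters and mismatch minimums, and leaving out each library were tried as alternatives. The fits were tested on simulated data. Exonic totals were 886387 to 4685049 reads per library. Reads that named no gene, or several genes outside the joint entries used here, were 16.6% to 37.8% of the HISAT-3N reads. They were 28.4% to 37.8% in DO libraries and 16.6% to 24.8% in IH libraries. Labelled pairs of libraries differed by more than sampling noise, with chi-square per degree of freedom of 2.15 to 8.94.

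The members and the gene lists were chosen with earlier results of these data known. All members are named. Symbols and coordinates come from RefSeq, GRCh38.p14. For the machinery lists, counts of genes and at most 3 examples are given, together with the genes most correlated with 7SK.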

Additional observations from a re-analysis of the deposited data

Results flagged for a closer look

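Of 38 groups of 6 labelled libraries that were looked at for a library standing apart, 2 had one, where chance alone gives about 1 in 20. Exonic reads made up 26.7% of the reads naming 7SL1 in periodate IH replicate 2, and 61.7% to 80.9% in the other 5 labelled IH libraries. They made up 99.4% of the RPPH1 reads in iodoacetamide IH replicate 1, and 99.8% to 99.9% in the others.

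With HISAT-3N, libraries of different chemistries lay on opposite sides of their unlabelled background in 2 RNAs, and these differences were not tested. The converted share of 7SL1 under DO was below the unlabelled library by 2.25 and 0.88 points in the periodate replicates (-2.25 and -0.88) and above it by 1.16 and 1.56 points with iodoacetamide, a difference of -2.93 points. The osmium libraries lay on both sides of theirs, at 0.16 and -0.73 points. For RPPH1 under IH the iodoacetamide libraries were at -0.66 and -0.083 points from their background, those of periodate at 0.55 and 0.58 and those of osmium at 0.88 and 1.25. The differences of iodoacetamide from these were -0.932 and -1.44 points. With STAR neither pattern held: the periodate libraries of 7SL1 under DO were above background by 2.45 and 1.22 points, as were those of iodoacetamide by 2.36 and 1.09, and the iodoacetamide libraries of RPPH1 under IH lay on both sides, at -0.43 and 0.084 points. Each rests on a single unlabelled library per chemistry.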

How the results depend on the processing

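Over 50 results for the 5 RNAs, 1092 of 1170 alternatives kept the direction and the side of the threshold, 12 lost a call, 25 gained one and 41 changed direction. These include the handling counts, from which nothing is read. The count of called RNAs changed as follows. In the aligner counts it went from 4 to 2 with all reads of the gene, and reached 5 in another setting. In aligner converted shares it was 5, and 4 to 5 over other settings and over libraries left out. In s4U converted shares it was 4 under each handling, and 4 to 5 over other settings. Under IH it also changed in some fits with a library left out. In converted shares by chemistry it went from 0 to 1 with the replicate block, and in counts by chemistry from 0 to 1 without the filter on low counts. In converted shares by handling it went from 0 to 1 with STAR and with the replicate block, which called RMRP (-0.26, edgeR adjusted p = 0.00897), and was 0 to 1 over single libraries left out. In s4U counts under DO it went from 0 to 4 without the filter, to 1 with the replicate block and to 0 to 4 over libraries left out, and under IH to 2 without the filter and 0 to 1 over libraries left out. The causes were not tested.

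Directions changed only near 0, except where given. The aligner log2 ratio of RMRP was 0.025 with all reads and 0.081 without scaling, that of RPPH1 0.058 and 0.16, and that of 7SL1 -0.0015 with all reads. The handling odds ratio of converted shares for 7SK was -0.035 with STAR, -0.010 with all reads, -0.027 with at least 2 mismatches and -0.089 on summed libraries (-0.053 to 0.073 over libraries left out). For 7SL1 it was 0.020 with all reads (-0.20 to 0.011), and for 7SL2 0.038 by mismatch rate and 0.019 with at least 2 mismatches (-0.14 to 0.046). The s4U by handling difference on exonic totals alone was 0.092 for RMRP (-0.13 to 0.024 over libraries left out), 0.023 for 7SK and 0.060 for 7SL2. The s4U odds ratio of 7SL1 under DO was 0.69 with STAR, 0.63 by mismatch rate, 0.21 with all reads, 3.42 with at least 2 mismatches and 0.059 with the replicate block (-0.39 to 0.24). The s4U log2 difference in IH counts was -0.0021 for 7SK with the replicate block, -0.0080 for 7SL2 with STAR, and for RPPH1 -0.017 with all reads and -0.084 with the replicate block (-0.051 to 0.075).

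Over all genes, s4U calls under DO were 27, and 44 with DESeq2, 50 on totals alone, 63 with the block, 101 without the filter and 9 to 209 over libraries left out. Under IH they were 28, and 8 with STAR, 43 with the block, 52 without the filter and 13 to 58 over libraries left out. The s4U by handling difference gave 0, and 3 with DESeq2, 3 with the block, 12 without the filter and 0 to 17 over libraries left out. Chemistry calls in counts were 2, and 4 with the block, 10 without the filter and 0 to 5 over libraries left out, and in converted shares 0, and 1 with all reads and 2 with the block. Handling calls of converted shares were 1637 at 50 reads, 2890 at 20 and 308 at 200. Aligner calls were 5050 in counts and 10255 without scaling, and 1126 in shares and 2106 at 20 reads.

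Replicate numbers did not pair DO with IH libraries, since their deviations correlated at -0.0038, -0.0003 and -0.0028 for periodate, iodoacetamide and osmium. The block is therefore given as an alternative only. Single unlabelled libraries and 2 labelled libraries per group limit the precision.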
